A study of Homo sapiens with 12 samples.

Results

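The OAS family comprises the oligoadenylate synthetase genes OAS1, OAS2 and OAS3 and their relative OASL. All 4 were found by symbol among the 19677 genes of each count table, and 3 of the 4 had enough reads to be tested, OAS2 being the exception. They were chosen by their counts in these libraries, for their higher levels with bezafibrate, so their levels with and without the drug are given as a description, with no test.

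RNA was sequenced from CAOV3, an established ovarian epithelial cancer line of the high-grade serous type, listed as wild type, in 4 groups of 3 libraries. Control cells received DMSO, the ascites group received 10% ovarian cancer ascites and DMSO, the bezafibrate group received 200 uM bezafibrate, and the combination group received the drug and 10% ascites. Treatment lasted 16 hours in the last 3 groups, no time being listed for the control, and DMSO is named only for the groups without the drug, so that each drug comparison also holds any difference in solvent. All groups were grown in the same medium with serum. Ascites is abdominal fluid that builds up in this cancer. Bezafibrate belongs to the fibrates, lipid-lowering drugs that activate nuclear receptors of the PPAR family. The labels do not say whether the replicates were separate cultures or days, or whether the ascites had more than 1 source, and every error and p-value below therefore covers only the spread between these libraries.

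In the textbook account, OAS1, OAS2 and OAS3 sense double-stranded RNA and respond by joining ATP into short 2-5A chains, which act as a second messenger of antiviral defence. OAS1 has a single synthetase unit, while OAS2 and OAS3 carry repeated units, of which only the last is active in OAS3. OASL has a ubiquitin-like tail and makes no 2-5A, and is known for its work with the RNA sensor RIG-I. All are classic interferon-stimulated genes, switched on through interferon receptors and factors of the IRF family, at DNA elements built around repeats of GAAA.

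OAS1, OAS3 and OAS2 lie side by side on the long arm of chromosome 12, with positions here from RefSeq on GRCh38.p14. OAS1 (ENSG00000089127.15) spans chr12:112906962-112933219 and OAS3 (ENSG00000111331.14) spans chr12:112938474-112973251, 5.25 kb further on. OAS2 (ENSG00000111335.14) spans chr12:112978519-113011723, 5.27 kb after OAS3. OASL (ENSG00000135114.13) lies apart on the same chromosome, at chr12:121017761-121039246.

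The starts of OAS1 and OAS3 are shown because these neighbours carried most of the family's reads. Both were higher with the drug, but they were chosen for that, so it is no ground for a shared element. RefSeq promoter windows of 300 bases (250 before and 50 after the start) were at hand for OAS1 and OAS3, 2 of the 4 members, and not for OAS2 or OASL. The longest word that the windows of OAS1 and OAS3 share before the start on the same strand is 10 bases, GAAACGAAAC, printed in capitals in the first and second stretch. In the third, capitals mark a pair of GAAA copies with 2 bases between them, the core letters of an interferon-type element.
OAS1, chr12:112906932-112906961, plus strand: cctcccttctgagGAAACGAAACcaacagc
OAS3, chr12:112938316-112938345, plus strand: ctgctagaaaGAAACGAAACtgaaagcagg
OAS3, chr12:112938444-112938473, plus strand: gttcggagagccgggcggGAAAACGAAAcc
The shared word begins 17 bases before the start of OAS1 and 148 bases before that of OAS3. It was found, on either strand, in 21 of 35116 windows, or 0.0598%. The GAAA pair, also searched on both strands, was in 3.57% of windows. OAS3 matched it at 143 bases before the start, overlapping the shared word, and again at 12 bases before the start, while the OAS1 window did not. In the shared word the GAAA copies have 1 base between them. The search for this exact spacing therefore does not show that OAS1 lacks an interferon-type element. A pair of AGGTCA copies with 1 base between them, a form of the repeat that PPAR binds, was in 0.0228% of windows, and the same pair with 4 bases between was in 0.0199%, and neither was in the OAS1 or OAS3 window. A match of letters is a description of the sequence, and no binding was measured.

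Total counts per library ranged from 11831093 to 18762759, and levels are given as CPM, counts set to a common library size, after scaling by TMM, a normalisation that sets library sizes by the bulk of genes. Of the 9 epithelial and ovarian carcinoma markers listed, KRT8, KRT18, KRT7, CLDN4, CDH1 and EPCAM were expressed at 15.3 CPM or more in every library, whereas PAX8 had 122 reads in all 12 libraries, MUC16 had 10 and WFDC2 had 2, so the last 3 were near 0. The leukocyte genes PTPRC, CD3E, TYROBP, MS4A1 and CLEC4C had no reads in any library, and CD14 lay between 1.55 and 3.91 CPM. Drug and no drug were split by principal component 1, with 37% of the variance. Combination replicate 3 stood apart on component 2, at -22.44 against -4.367 to 9.837 for the other 11 libraries. Values without that library are given beside the OAS results and most of the genes called and named in combination against ascites. All 5 PPAR target genes listed (PDK4, ANGPTL4, PLIN2, CPT1A and FABP4) passed the test as higher with bezafibrate than in the control by edgeR's quasi-likelihood test, with a median log2 fold change of 3.60. Of all genes tested, 10.1% were called higher. The list was drawn up with earlier results of these data known, so its count is a description.

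OAS1 was low without the drug and about 5 times higher with it, whether or not ascites was present. Its CPM was 15, 18.6 and 16.8 in the control libraries and 16.0, 16.4 and 18 with ascites. With bezafibrate OAS1 was at 88.8, 86.7 and 87.0 CPM, and with the combination at 91.9, 85.4 and 93.5. All 6 libraries with the drug lay above all 6 without it, and the libraries of each group lay close together. The group means were 16.8 ± 1.79 CPM in the control, 16.8 ± 1.04 with ascites, 87.5 ± 1.13 with bezafibrate and 90.3 ± 4.29 with both (SD, n = 3). The fitted log2 fold change of OAS1 was 2.38 (SE 0.063) for bezafibrate against control, which is 5.22-fold, and 2.42 (SE 0.064) for combination against ascites, which is 5.37-fold. In bulk RNA a higher level in every cell and a higher share of cells with the RNA cannot be told apart.

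OAS3, the member with the most reads, was about doubled in level. Its CPM was 75.9, 71.1 and 80.1 in the control libraries and 75.0, 70.2 and 68.9 with ascites. With bezafibrate it was 156.4, 157.5 and 156.2, and with the combination 157.8, 153.6 and 167.5. The libraries with and without the drug again did not overlap, and the 3 bezafibrate libraries lay close together (156.7 ± 0.746 CPM, SD, n = 3). The fitted log2 fold change of OAS3 was 1.05 (SE 0.044) for bezafibrate against control, or 2.07-fold, and 1.16 (SE 0.045) for combination against ascites, or 2.24-fold.

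OASL was expressed at a low level in every library and was also higher with the drug. Its CPM was 1.98, 1.76 and 1.27 in the control and 1.282, 1.48 and 1.95 with ascites, from 16 to 29 reads a library. With bezafibrate it was 3.56, 4.47 and 3.50, and with the combination 3.87, 3.14 and 4.05, from 37 to 83 reads. Every library with the drug was above every library without it, with a wider relative spread than for OAS1 and OAS3. The fitted log2 fold change of OASL was 1.19 (SE 0.22) for bezafibrate against control, or 2.29-fold, and 1.22 (SE 0.23) for combination against ascites, or 2.34-fold.

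OAS2, which sits directly after OAS3, was close to silent in these cells in all conditions. It had 0, 0 and 2 reads in the control libraries, 1, 0 and 0 with ascites, 0, 2 and 3 with bezafibrate and 2, 0 and 1 with the combination. Pooled over the libraries of a group, its level was 0.0489 CPM in the control, with an exact 95% Poisson interval of 0.00592 to 0.177 that covers counting error only. With ascites it was 0.0240 (0.000607 to 0.134), with bezafibrate 0.101 (0.0326 to 0.235) and with the combination 0.0738 (0.0152 to 0.216). These intervals overlap throughout, but overlap is not a test of a difference, and OAS2 had too few reads to be tested. A count of 3 reads in a group would have been a level of 0.0603 to 0.0738 CPM.

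**Figure D1:**
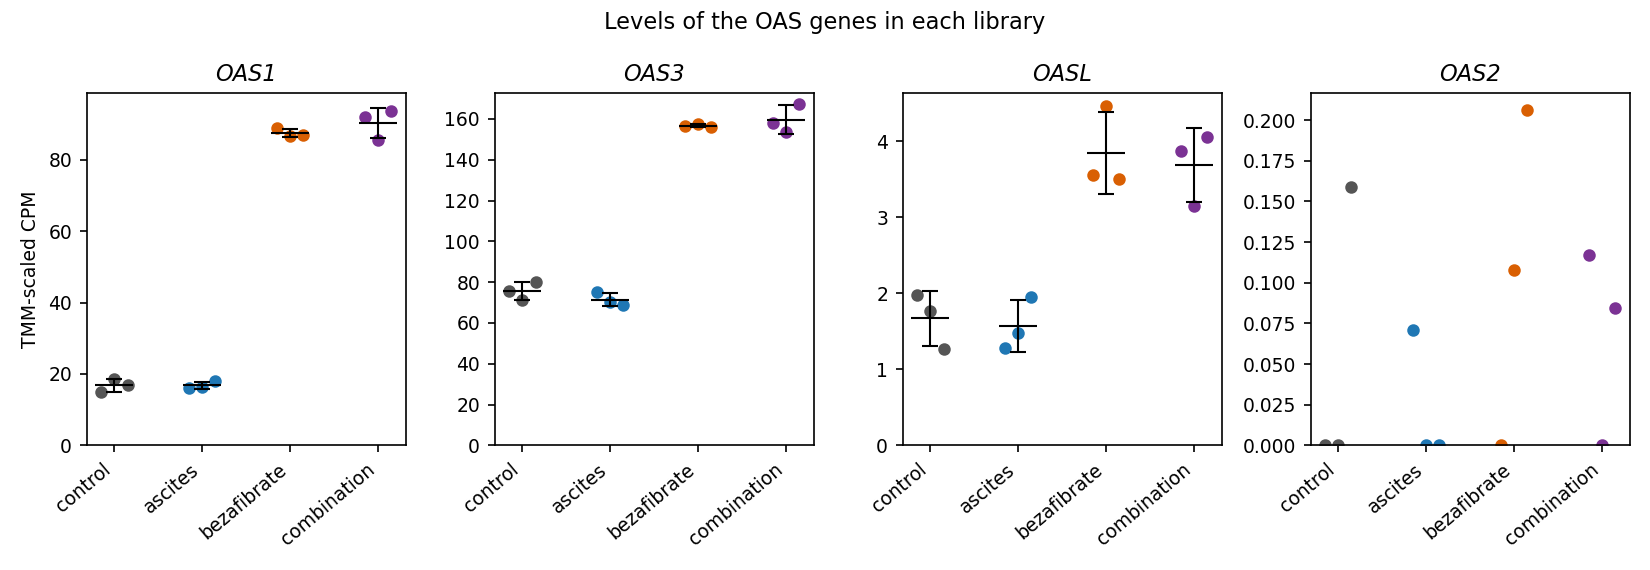
Points are the TMM-scaled CPM of OAS1, OAS3, OASL and OAS2 in each of the 3 libraries of each group, on a scale of its own for each gene. Bars are the mean and SD of 3 libraries (none is drawn for OAS2, which had 11 reads in all). OAS1, OAS3 and OASL are higher in each of the 6 libraries with bezafibrate than in each of the 6 without it, while OAS2 stays below 0.25 CPM.

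The 3 members that could be tested were called higher in each comparison of drug with no drug, a count that their choice fixes and from which nothing is read. For background, 10.1% of the 12470 genes tested were called higher with bezafibrate than in the control (edgeR's quasi-likelihood test, adjusted p under 0.05), 10.5% with the combination than with ascites, and 10.3% with the combination than in the control. The shares called lower were 7.55%, 7.29% and 7.96% in the same order, and those called in either direction were 17.6%, 17.8% and 18.2%. Groups that did not overlap in the higher direction were found for 17.2%, 16% and 15.6% of genes in the same order. In the last comparison, which shares its libraries with the other 2, the log2 fold changes of OAS1, OAS3 and OASL were 2.43, 1.08 and 1.13. Of the genes tested, 0.97% were called and at least 2-fold higher with bezafibrate than in the control. Ranked by that fold change, OAS1 was 21st, OASL 100th and OAS3 125th of the 12470. Without combination replicate 3 the log2 fold changes for combination against ascites were 2.40 for OAS1, 1.13 for OAS3 and 1.16 for OASL, and for combination against control 2.41, 1.04 and 1.07.

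OAS1 was a larger part of the family's reads with the drug. The ratio of OAS1 to OAS3 reads was 0.198, 0.261 and 0.210 in the control libraries and 0.214, 0.234 and 0.261 with ascites. With bezafibrate the ratio was 0.568, 0.550 and 0.557, and with the combination 0.583, 0.556 and 0.558. The ratio of OASL to OAS3 reads, in contrast, overlapped: it ran from 0.0158 to 0.0283 without the drug and from 0.0205 to 0.0283 with it.

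Levels can be set between genes only per length, and the outcome for OAS1 and OAS3 depended on the length taken. Using all exonic bases of a gene in GENCODE 29 (4947 for OAS1, 8251 for OAS3 and 3517 for OASL), the control means per kb were 9.17 CPM for OAS3, 3.40 for OAS1 and 0.475 for OASL, with OAS2 at 0.0084. The order OAS3, OAS1, OASL, OAS2 was also found with ascites, and no neighbours in it overlapped between libraries. With bezafibrate the level per kb was 19 for OAS3 and 17.7 for OAS1, and with the combination their libraries overlapped, at 18.6 to 20.3 for OAS3 and 17.3 to 18.9 for OAS1. With the longest transcript as the length (2416 bases for OAS1 and 6719 for OAS3), OAS3 was still ahead in the control, at 11.3 against 6.95 CPM per kb. OAS1 was then ahead with bezafibrate, at 36.2 against 23.3. The counts are per gene, and the 11 OAS1 transcripts of the annotation, which encode enzymes with different ends, cannot be told apart.

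The choice of genes rested on their rise with bezafibrate. It was not made on comparisons of ascites with no ascites, or of the drug response with and without ascites. These comparisons still share libraries with that rise, and the last one contains it, so they are not independent of the choice. Their intervals and p-values carry this limit. For OAS1 the log2 fold change of ascites against control was 0.0053 (SE 0.084, 95% interval -0.17 to 0.18, adjusted p = 0.995 by edgeR's quasi-likelihood test). For OAS3 it was -0.08 (SE 0.049, -0.18 to 0.01, adjusted p = 0.896 by edgeR's quasi-likelihood test). For OASL it was -0.09 (SE 0.26, -0.63 to 0.45, adjusted p = 0.987 by edgeR's quasi-likelihood test). The count of members called was thus 0 of 3, beside 0.0882% of all genes tested, and none was called by DESeq2 or limma-voom. None had an unadjusted p under 0.05, beside 6.01% of all genes. On the linear scale the intervals run from 0.892 to 1.13 times the control level for OAS1, from 0.881 to 1.01 for OAS3 and from 0.647 to 1.36 for OASL, so the range left for OASL is wider than for the other members.

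Adding ascites to the drug gave the same outcome. Combination against bezafibrate gave log2 fold changes of 0.05 (SE 0.048) for OAS1, 0.03 (SE 0.040) for OAS3 and -0.06 (SE 0.19) for OASL. Their 95% intervals were -0.05 to 0.14, -0.06 to 0.11 and -0.45 to 0.32, and the adjusted p was 1 for each by edgeR's quasi-likelihood test. No member of 3 was called, beside 0.128% of all genes, and none by DESeq2 or limma-voom. None had an unadjusted p under 0.05, beside 4.79% of all genes. Without combination replicate 3 the values were 0.02, -0.0078 and -0.12. Averaged over the drug, ascites gave 0.03 for OAS1, -0.03 for OAS3 and -0.08 for OASL, with adjusted p of 0.969, 0.936 and 0.971 by edgeR's quasi-likelihood test, beside 0.281% of all genes called. Without combination replicate 3 these averages were 0.01, -0.05 and -0.11, none called.

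The interaction asks whether the response to bezafibrate differed with ascites present. It was 0.04 (SE 0.097, 95% interval -0.16 to 0.24) for OAS1, 0.11 (SE 0.063, -0.02 to 0.24) for OAS3 and 0.03 (SE 0.32, -0.63 to 0.69) for OASL on the log2 scale. The adjusted p was 0.999 for each by edgeR's quasi-likelihood test, and no gene of the 12470 was called by edgeR, DESeq2 or limma-voom, with 445, or 3.57%, at an unadjusted p under 0.05, none of them a member. For OAS1 the interval leaves out a change of the drug's fold beyond about 0.24 in log2, while for OASL the interval is much wider. Without combination replicate 3 the interaction was 0.02 for OAS1, 0.08 for OAS3 and -0.03 for OASL, none called.

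**Figure D2:**
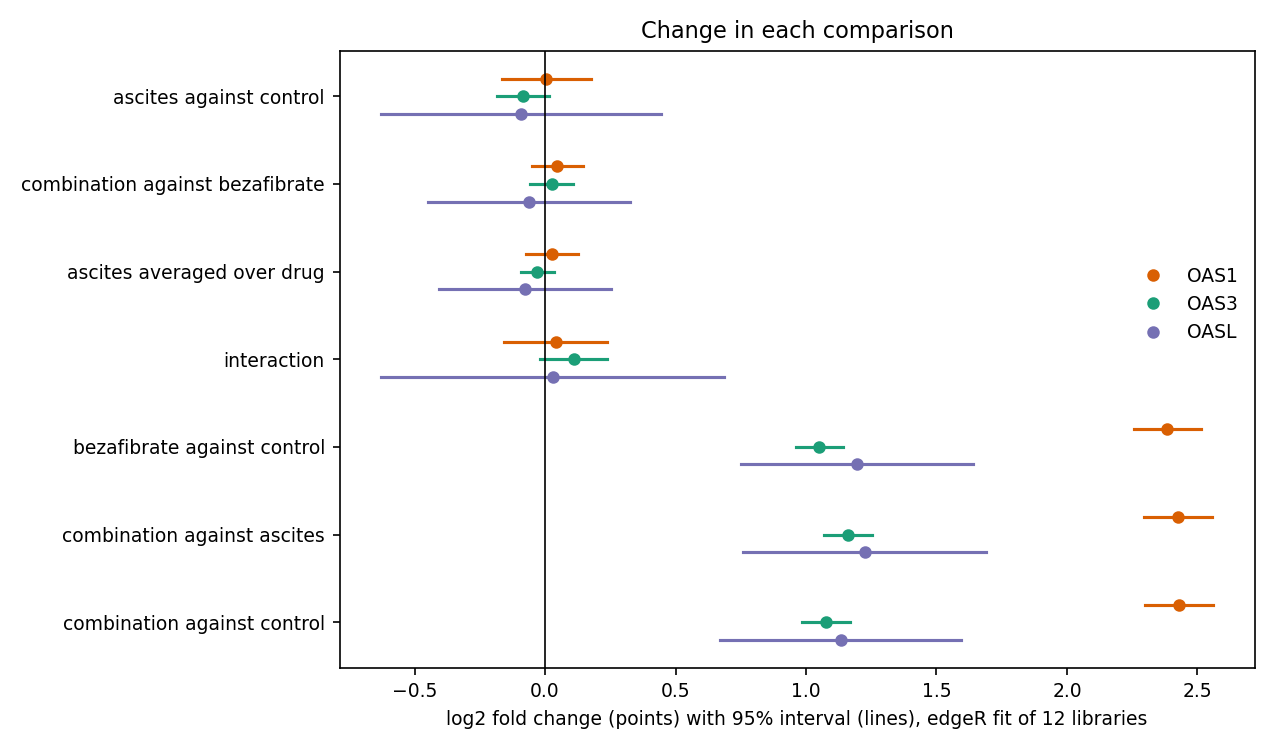
Points are log2 fold changes and lines their 95% intervals for OAS1, OAS3 and OASL in 7 comparisons, from the edgeR fit of 12 libraries. In the 3 ascites comparisons and the interaction every interval includes 0, and in the 3 drug comparisons, which the choice of the OAS genes used, OAS1 lies between 2.38 and 2.43 and OAS3 and OASL between 1.05 and 1.22.

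Among 5 genes listed as partners of the 2-5A system or relatives of the synthetases, AKAP7 fell with the drug and none rose. The AKAP7 protein has a domain that can break down 2-5A. Its level was 18.3, 17.4 and 14.1 CPM in the control libraries and 14.7, 15.5 and 16.2 with ascites, against 12, 11.1 and 11.5 with bezafibrate and 11.7, 11.1 and 12.1 with the combination. All 6 libraries with the drug were below all 6 without it. Of all genes tested, 16.3% did not overlap in the lower direction for bezafibrate against control and 14.5% for combination against ascites. The log2 fold change of AKAP7 was -0.53 (SE 0.096, adjusted p = 5.06e-05) against control and -0.41 (SE 0.10, adjusted p = 0.00247) for combination against ascites, by edgeR's quasi-likelihood test. The second value was -0.43 without combination replicate 3, and the call held. ABCE1, a ribosome recycling factor, was abundant at 413.6, 413.1, 418.8 and 423.3 CPM in the control, ascites, bezafibrate and combination groups. PDE12, a phosphodiesterase that degrades 2-5A, had means of 82.0, 84.5, 77.8 and 82.0 CPM in the same order. ENPP1, which hydrolyses nucleotide second messengers, had log2 fold changes of 0.14 (bezafibrate against control) and 0.08 (combination against ascites), and was called in neither. It passed the test for bezafibrate against control when bezafibrate replicate 2 was left out (0.18) or the other 2 groups were not in the fit. CGAS, a structural relative of the synthetases that senses DNA, had 0.0084 and 0.08. Of these 5 genes, 1 was called lower and 0 higher in each comparison, beside 7.55% and 7.29% of all genes called lower, with medians of 0.0084 and 0.03 beside -0.0037 over all genes tested in both.

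The genes that sense double-stranded RNA alongside the OAS proteins mostly gave small values. Of 15 listed, 11 could be tested, and 1 was called higher with bezafibrate than in the control, at a list median of 0.01. With 1 of 11 genes, the share is near the 10.1% of all genes called higher. That gene was TRIM25, a ubiquitin ligase that activates RIG-I, with a log2 fold change of 0.45 (SE 0.037, adjusted p = 2.46e-12 by edgeR's quasi-likelihood test). In combination against ascites TRIM25 was at 0.42 (0.40 without combination replicate 3) and a second gene, the signalling kinase TBK1, was called at 0.16, a call lost in 10 of 15 alternatives, among them leaving out any 1 of the ascites libraries or combination replicate 2 or 3. EIF2AK2, the kinase PKR, which is named after its values were seen, had means of 147.3, 145.8, 148.1 and 147.3 CPM in control, ascites, bezafibrate and combination.

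Interferon genes themselves were scarcely read. Of 21 in the tables, 18 had no read in any library, IFNA1 had 7 reads in all and IFNA21 had 1. IFNE, the interferon of the reproductive tract lining, was the only one tested, with 5 to 18 reads a library and a log2 fold change of 0.36 (SE 0.39, adjusted p = 0.617 by edgeR's quasi-likelihood test) for bezafibrate against control. Of 18 genes for interferon receptors and signalling, 17 were tested, with 2 called higher and 1 lower with bezafibrate against control at a median of -0.0031. These 3 of 17 genes match the 17.6% of all genes called in either direction. IRF1, a transcription factor that binds the elements named above, was at 19.3 ± 1.96 CPM in the control and 38.3 ± 1.52 with bezafibrate, and at 18.6 ± 1.41 with ascites and 38.5 ± 3.35 with both (SD, n = 3). Its libraries with and without the drug did not overlap, and its log2 fold changes were 0.99 (SE 0.075, adjusted p = 2.24e-13) and 1.04 (SE 0.077, adjusted p = 1.24e-13) by edgeR's quasi-likelihood test, the second being 1.09 without combination replicate 3. IFNGR2, a chain of the interferon gamma receptor, rose by 0.39 and 0.36 (0.37 without combination replicate 3), and PIAS1, a SUMO ligase that acts in interferon signalling, was called lower only in the first, at -0.19. JAK1 was called in the second, at 0.13, a call lost in 9 of 15 alternatives, among them leaving out combination replicate 3 (0.10). STAT2 and IRF9, which carry the type I interferon signal to the nucleus and were again named after their values were seen, had log2 fold changes of 0.02 and 0.03 (STAT2) and -0.27 and -0.22 (IRF9), and neither was called. Leaving out bezafibrate replicate 3 raised the count of the receptor and signalling genes called from 3 to 5, with IFNAR1 at 0.16 and IFNAR2 at -0.26.

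Of 62 other interferon-stimulated genes listed, 46 were tested, and 14 were called higher and none lower with bezafibrate against control, at a median of 0.11 against -0.0037 over all genes. In combination against ascites 17 were called higher and 2 lower, at a median of 0.16, and in combination against control 19 were called higher and none lower, at 0.15. These shares of 14, 17 and 19 of 46 stand beside the backgrounds of 10.1%, 10.5% and 10.3% given above, and the list was drawn up with results of these libraries known. The 4 largest in the first comparison were DDX60 at 1.63 (SE 0.16), APOL6 at 1.43 (SE 0.063), DDX60L at 1.22 (SE 0.14) and GBP2 at 0.99 (SE 0.065). DDX60 and DDX60L encode related interferon-induced helicases that may share reads, so their division is uncertain, APOL6 is an apolipoprotein L and GBP2 is a guanylate-binding GTPase. APOL6 was at 22.7 ± 0.66 CPM in the control and 61.3 ± 3.6 with bezafibrate, and at 24.0 ± 2.0 with ascites and 67.2 ± 1.9 with both (SD, n = 3). In combination against ascites the 4 largest were DDX60 at 1.59, APOL6 at 1.48, NMI, an interferon-induced adaptor protein, at 1.47 and PSMB9, an immunoproteasome subunit, at 1.43, the last 2 from a level under 1 CPM. The 2 called lower there were IFIT5, an RNA-binding relative of IFIT1, at -0.39 and the death ligand TNFSF10 at -1.40, the latter call being lost in 6 of 14 alternatives, among them leaving out combination replicate 3 (-1.23). The IFIT5 call was lost without combination replicate 2 (-0.27, adjusted p = 0.0945 by edgeR's quasi-likelihood test), and the count over the list in this comparison was 11 in place of 19 without ascites replicate 3 and 16 without combination replicate 3. Without the last library the values were 1.66 for DDX60, 1.46 for APOL6, 1.58 for NMI, 1.43 for PSMB9 and -0.51 for IFIT5, all still called. For bezafibrate against control NMI was at 0.50 and PSMB9 at 0.99, and neither was called.

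Values for 3 well-known members of this list follow, none of them called for bezafibrate against control. They do not cover its range, which in that comparison ran from -0.76 (TNFSF10) to 1.63 (DDX60) among tested genes. Chosen after their values were seen, IFIT1 had means of 1.66, 1.71, 1.34 and 1.09 CPM in control, ascites, bezafibrate and combination, MX1 had 0.361, 0.195, 0.176 and 0.362, and ISG15 had 16.4, 17.1, 18.7 and 20.1. IFIT1 was called neither for bezafibrate against control nor for combination against ascites, and MX1 had too few reads to be tested. ISG15 was called in combination against control, at 0.30, a call lost in 3 of 15 alternatives (without control replicate 2 or combination replicate 1, and by DESeq2). In combination against ascites ISG15 was called at 0.24, a call lost in 13 of 15 alternatives, leaving out any 1 of the ascites libraries or combination replicate 1 or 2 among them. For bezafibrate against control it was at 0.19 and was not called, but passed the test without bezafibrate replicate 1 (0.26). Over the 5 pathway lists together, 80 genes were tested and 19, 25 and 23 were called in the 3 drug comparisons, beside 17.6%, 17.8% and 18.2% of all genes called in either direction. In ascites against control, combination against bezafibrate, ascites averaged over the drug and the interaction none was called by edgeR's quasi-likelihood test, DESeq2 or limma-voom, with 6, 6, 5 and 4 at an unadjusted p under 0.05.

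**Figure D3:**
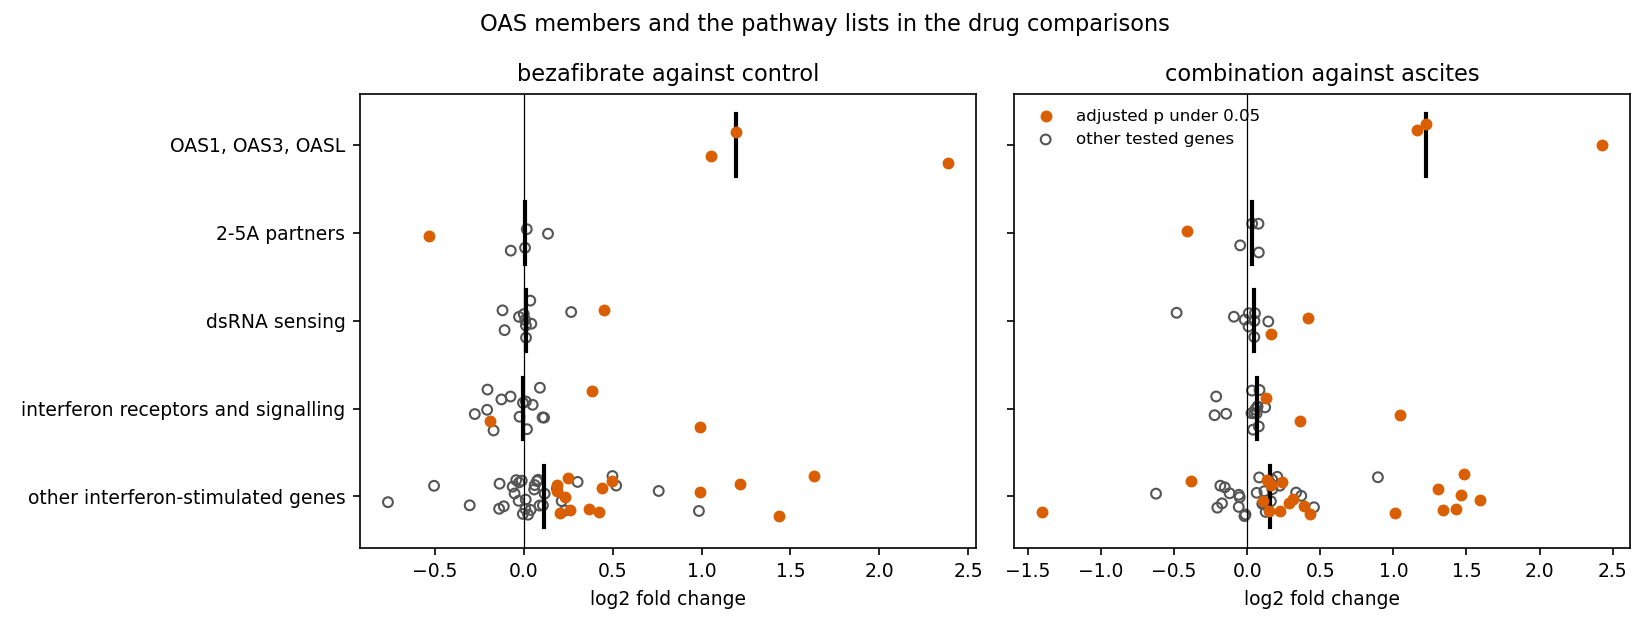
Each point is the log2 fold change of a tested gene, for the 3 tested OAS genes and 4 pathway lists, in bezafibrate against control (left) and combination against ascites (right). Filled points passed an adjusted p of 0.05, vertical bars are list medians, and the vertical spread within a list has no meaning. The OAS genes, which were chosen for their level with the drug, lie at 1.05 to 2.38 on the left, where the median of the other interferon-stimulated genes is 0.11.

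The GAAA pair found in the OAS3 window was in the windows of 376 tested genes other than the OAS family. Of these, 50 or 13.3% were called higher with bezafibrate than in the control, against 948 or 9.81% of the 9664 without a match. Called lower were 35 of the 376 and 727 of the 9664. The median log2 fold changes were -0.00014 with and -0.0046 without a match, both close to no change. Within the list of interferon-stimulated genes, 8 of 27 with a match and 2 of 8 without one were called higher. The 10-base word that OAS1 and OAS3 share was in the windows of 9 other tested genes. Of these, 3 were called higher with bezafibrate than in the control, against 9.92% of the genes without a match, and their median log2 fold change was -0.02. In combination against ascites 1 of the 9 was called higher, against 10.5% of the genes without a match. For the GAAA pair the shares called higher there were 13.3% with and 10.4% without a match. Called lower were 35 genes with and 681 without a match, at medians of 0.02 and -0.0036.

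The genes around the OAS loci were called about as often as genes in general. In bezafibrate against control 1 of 6 tested neighbours of the cluster and 1 of 8 around OASL were called, beside 17.6% of all genes in either direction, and in combination against ascites 1 of 6 and 2 of 8 were, beside 17.8%. Of the 5 protein-coding genes on each side of the cluster, 6 could be tested (TRAFD1, HECTD4, RPL6, PTPN11, DDX54 and RITA1), and their log2 fold changes for bezafibrate against control lay between -0.14 and 0.03. Among these 6 only RITA1, on the far side of the cluster, was called, and it was lower, at -0.14 and, for combination against ascites, -0.20 (adjusted p = 0.04 and 0.00324 by edgeR's quasi-likelihood test). The first call was lost in 8 of 15 alternatives, leaving out any 1 of the 6 libraries among them, while the second held in all 15 and was -0.19 without combination replicate 3. The nearest neighbours had almost no reads: RPH3A, which ends 8.081 kb before OAS1, had none in any library, and DTX1, which starts 45.007 kb after OAS2, had 12. ACADS, a mitochondrial enzyme of short-chain fatty acid oxidation that lies 277.753 kb from OASL, rose in both, by 0.36 and 0.37 (adjusted p = 0.00105 and 0.00117 by edgeR's quasi-likelihood test), and UNC119B was lower in combination against ascites, at -0.14. The ACADS calls held in all 15 alternatives (0.40 without combination replicate 3 in the second), while that of UNC119B was lost in 5 of 15, among them leaving out ascites replicate 1 or 2 or combination replicate 3.

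**Figure D4:**
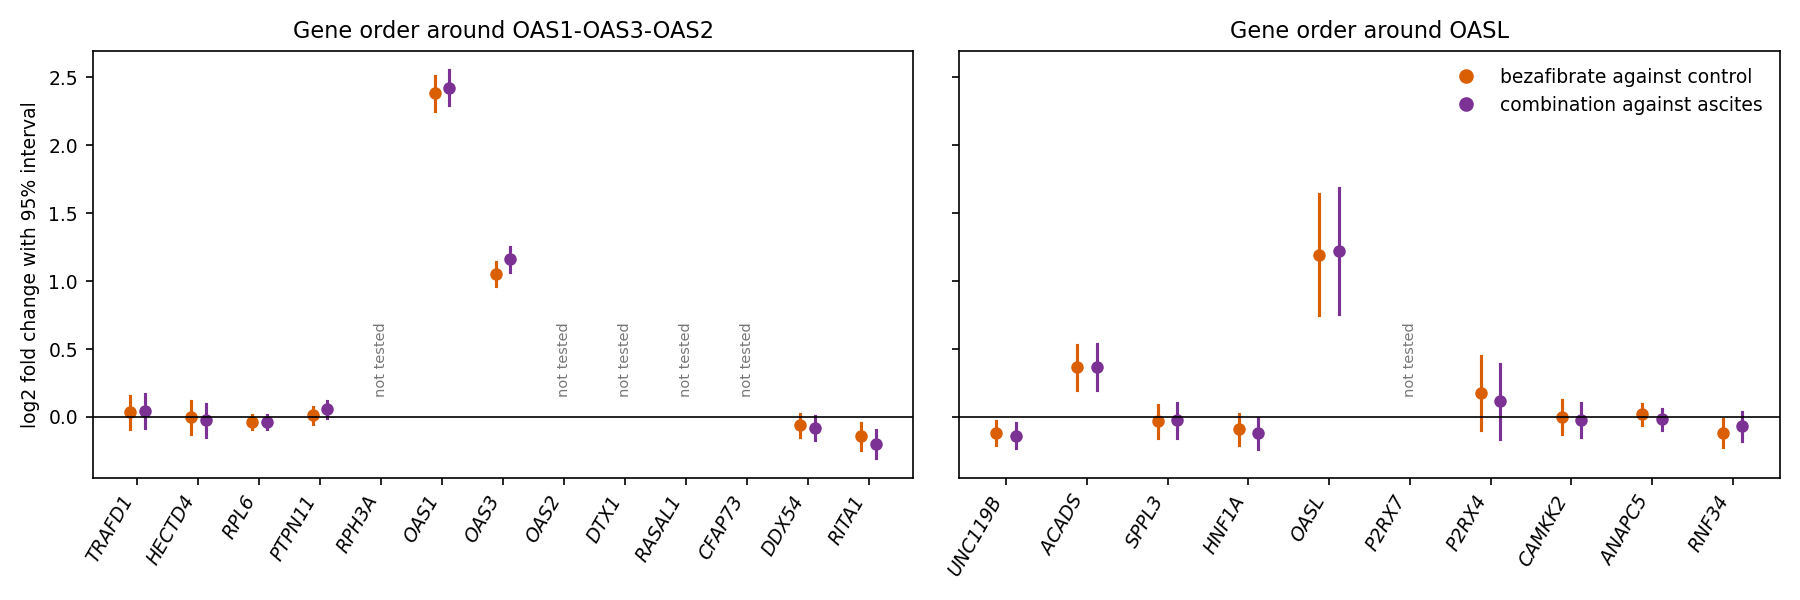
Log2 fold changes with 95% intervals are drawn in chromosome order, at equal spacing, for OAS1, OAS3 and OASL and protein-coding genes around each locus (5 a side, and 9 in all around OASL), for bezafibrate against control and combination against ascites. OAS1 is at 2.38 and 2.42 and OAS3 at 1.05 and 1.16, while the tested neighbours of their cluster lie between -0.20 and 0.06. Genes with too few reads, OAS2 among them, are marked as not tested.

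Across the 12 libraries the log2 CPM of OAS1 followed that of OAS3 with a Pearson r of 0.99, and OASL followed OAS1 at 0.945 and OAS3 at 0.929. These values rest on the same split of libraries by drug: for deviations from the group means r was -0.316 for OAS1 with OAS3, 0.233 for OAS1 with OASL and -0.36 for OAS3 with OASL. The genes most like OAS1 over the 12 libraries were VLDLR, a lipoprotein receptor (r = 0.998), TSC22D1, a transcription regulator (0.998), and FABP4, a fatty acid binding protein (0.998). Their log2 fold changes for bezafibrate against control were 2.46, 0.90 and 3.69. Most like OAS3 were FERMT1 and DSG2, which act in cell adhesion, and the receptor TLR4 (r = 0.998, 0.997 and 0.997), with 0.53, 0.33 and 1.47. Most like OASL were SDC3, a syndecan, PLEK2, a relative of pleckstrin, and B4GALT1, a galactosyltransferase (r = 0.974, 0.972 and 0.972), with 0.63, 0.35 and 0.34. A high r here says that a gene was split by the drug with little scatter, whatever the size of its change, and is given as a description.

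Fibroblast-type genes and some carcinoma markers also moved with the drug. The leukocyte, red cell and platelet, and mesothelial lists had 1 tested gene each (CD14, HBA1 and CALB2), none called in the drug comparisons. All 4 tested fibroblast-type genes were lower with bezafibrate than in the control (COL1A1 at -0.68, COL3A1 at -0.71, PDGFRA at -1.003 and LUM at -0.17), beside 7.55% of all genes called lower, and the list summed to 231.3 to 243.7 CPM in the control libraries and 186.7 to 199.3 with the drug, with DCN at 3 reads in all. Of 7 tested carcinoma markers 4 were called higher with bezafibrate, beside 10.1% of all genes. They were CDH1 at 1.52, PAX8 at 1.48 with only 122 reads in all, CLDN4 at 0.68 and KRT7 at 0.55. EPCAM (0.19) and the most abundant markers, KRT8 (-0.04) and KRT18 (-0.05), were not called. The carcinoma list summed to 5683 to 5791 CPM in the control and 5905 to 6182 with the drug. The leukocyte list summed to 2.62 to 2.86 and 2.15 to 3.37 CPM, all of it CD14. Red cell and platelet genes summed to at most 1.41 CPM in any library, with PPBP, PF4 and GP9 at 0. The part of these marker shifts in the levels of the OAS genes was not tested.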

How the data were processed

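Each library has a table of counts deposited by the authors, in which every gene has an Ensembl identifier, a symbol and a whole number of reads. Per the submitters' processing notes, Trimmomatic 0.39, STAR 2.7.9a, RSEM 1.3.3, DESeq2 1.28.1 and GRCh38 were used, with no role stated. RSEM estimates need not be whole, and whether these counts were rounded, counted by strand or how reads shared by related genes were divided is not given in the sources used here. Rows without a symbol numbered 346.

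Groups came from the labels. Counts were analysed with edgeR 4.0.16 in R 4.3.3. Genes were kept by filterByExpr (minimum count 10, minimum total 15), which left 12470 genes with at least 99.9571% of each library's counts. Library sizes were scaled by TMM, and a quasi-likelihood test used 1 mean per group over all 12 libraries (8 residual degrees of freedom) with Benjamini-Hochberg adjustment over all genes tested and a threshold of 0.05. No pair of replicates was a duplicate (chi-square per degree of freedom 1.445 to 4.449). The fit was tested on simulated data.

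The members and gene lists were chosen with earlier results of these data known. Named genes were the members, the 2-5A partners, the called genes of each list (at most 4 per direction, by size), 5 neighbours per side of each locus (1 is not reported here) and the 3 genes with the highest r per member. IFNL4 was not among the symbols. Promoter windows and positions are from RefSeq (GRCh38.p14), lengths from GENCODE 29. Alternatives were other scalings (DESeq2 size factors, upper quartile, totals), other filters, the DESeq2 1.42.0 Wald test, limma-voom (limma 3.58.1), a replicate block, fits of 2 groups alone, and leaving out each library in turn.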

Additional observations from a re-analysis of the deposited data

How the results depend on the processing

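For the OAS genes, 460 alternative values of 28 results all kept their side of the threshold, and the drug comparisons kept their direction. The log2 fold change for bezafibrate against control ran from 2.30 to 2.47 for OAS1, 1.01 to 1.09 for OAS3 and 1.04 to 1.34 for OASL. The pathway lists had no call for ascites averaged over the drug, and leaving out 1 library gave 0 to 1, the 1 being LY6E at 0.09 without combination replicate 3. Over all genes, ascites against control called 11, against 59 with no filter, 33 with the 2 groups alone, 7 with limma-voom and 3 to 5 on leaving out any 1 of its 6 libraries. Combination against bezafibrate called 16, against 52 with no filter, 7 with the 2 groups alone, 28 without combination replicate 3 and 10 and 9 without bezafibrate replicate 1 and 2. Ascites averaged over the drug called 35, against 113 with no filter, 118 without combination replicate 3 and 21 and 23 without ascites replicate 1 and 3. The interaction called 0, against 36 with no filter and 3 without combination replicate 1. Same-numbered replicates did not deviate together (18 pairs, r from -0.135 to 0.0613). This shows no pairing by number in the counts and cannot settle whether same-numbered libraries were prepared together. A replicate block gave 2145 genes in place of 2199 for bezafibrate against control, 8 in place of 11 for ascites against control and 1 in place of 0 for the interaction, and changed no call of an OAS gene. OAS2 is limited by its depth of 0 to 3 reads a library.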
